A study of Homo sapiens with 12 samples.

Results

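The mitosis and G2/M genes described here are a set of 40 genes whose products carry a cell from late G2 through chromosome segregation to cytokinesis. Members had to be listed in all 3 deposited tables with a mean of at least 1 FPKM (fragments per kilobase of transcript, scaled to the mapped fragments of the library). All 40 were listed and 39 passed, of 11075 genes in all that did. UBE2C, the ubiquitin-conjugating enzyme of the anaphase-promoting complex, stayed out at 0.239 to 1.61 FPKM. The cells were K562, a human leukemia line that grows in suspension with an erythroid expression pattern. Palmitoleate is a monounsaturated fatty acid with the chain length of palmitate, which is saturated. The study asked how cells respond to an excess of saturated fatty acid.

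In experiment 1, untreated wild-type cells stood beside wild-type cells with palmitate and with palmitoleate. Experiment 2 had untreated wild-type cells, wild-type cells with palmitate or with both acids, and GPAT4ko cells given palmitate, a line labelled as a knockout of the acyltransferase GPAT4 (listed as AGPAT6). Experiment 3 had untreated and palmitate-treated wild-type cells and untreated and palmitate-treated RNF213kd cells, labelled as a knockdown of the ubiquitin ligase RNF213. That makes 11 libraries, 1 per condition and experiment, each made, per the series' design text, from pooled RNA of 3 biological replicates, although the titles of the wild-type and GPAT4ko palmitate libraries of experiment 2 span only 2 numbers. Palmitate was given bound to albumin at 0.2 mM, with a treatment time of 20 h in the labels, whereas legends in the files of experiments 2 and 3 give 16 h. The legend of experiment 2 gives 0.2 mM for palmitoleate in the mixture, and no dose is given for palmitoleate alone. The sources used here do not say how the knockout and knockdown lines were made or whether each is a single clone.

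Transcription of this gene class is held down in G1 and rises toward mitosis. The repressive DREAM complex, the activators MYBL2 and FOXM1 and the factor NF-Y act on it through a short promoter element called the CHR and through CCAAT boxes. The cyclin-dependent kinase inhibitor p21, the product of CDKN1A, is known to favour the repressive state. The encoded proteins include the kinase CDK1 with its cyclins, the spindle checkpoint that holds back anaphase, the kinetochore that links chromosomes to microtubules, and the protease separase that cuts cohesin.

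Promoters were looked up because shared elements are what the class is known for, which the choice of members did not use. RefSeq promoter windows (GRCh38.p14, 250 bases before to 50 after the annotated start) matched 34 of the 40 genes. The CHR was searched as TTTGAA and the CCAAT box as CCAAT, each on both strands and with overlaps allowed. A CHR stood in 25 of the 34 windows (73.5%), against 15.4% of all 27305 windows of the same length. A CCAAT box stood in 25 (73.5%), against 35.7% of all windows, and both elements in 20 (58.8%), against 6.08%. Shown are the 120 bases before the annotated start for the genes that the results below turn on, 5′ to 3′ on the gene's own strand, with capitals for elements that lie wholly inside the stretch; in MKI67 a CHR and a reversed CCAAT box overlap.
MKI67, chr10:128126424-128126543, minus strand: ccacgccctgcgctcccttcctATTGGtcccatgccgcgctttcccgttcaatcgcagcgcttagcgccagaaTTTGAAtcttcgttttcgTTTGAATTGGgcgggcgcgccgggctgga
ESPL1, chr12:53268179-53268298, plus strand: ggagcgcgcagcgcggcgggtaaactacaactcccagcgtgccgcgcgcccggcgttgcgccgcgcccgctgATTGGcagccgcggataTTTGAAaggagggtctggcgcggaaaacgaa
TOP2A, chr17:40417897-40418016, minus strand: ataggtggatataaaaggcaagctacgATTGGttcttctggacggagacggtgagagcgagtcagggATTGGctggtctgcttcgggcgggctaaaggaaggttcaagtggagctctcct
CCNA2, chr4:121823884-121824003, minus strand: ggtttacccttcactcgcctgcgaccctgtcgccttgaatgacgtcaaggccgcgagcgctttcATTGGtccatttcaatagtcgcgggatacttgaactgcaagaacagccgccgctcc
SPC25, chr2:168890431-168890550, minus strand: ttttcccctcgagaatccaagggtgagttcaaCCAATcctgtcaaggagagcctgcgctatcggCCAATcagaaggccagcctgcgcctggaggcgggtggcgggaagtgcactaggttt
NDC80, chr18:2571437-2571556, plus strand: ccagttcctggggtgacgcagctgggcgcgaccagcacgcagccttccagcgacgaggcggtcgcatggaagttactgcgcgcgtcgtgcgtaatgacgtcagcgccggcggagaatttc
NUF2, chr1:163321834-163321953, plus strand: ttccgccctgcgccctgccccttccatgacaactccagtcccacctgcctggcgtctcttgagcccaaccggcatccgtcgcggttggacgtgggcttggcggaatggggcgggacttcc
CDC25C, chr5:138338356-138338475, minus strand: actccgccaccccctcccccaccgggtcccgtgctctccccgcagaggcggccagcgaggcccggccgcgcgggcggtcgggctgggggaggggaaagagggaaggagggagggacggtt
In MKI67 and ESPL1 both elements lie within 98 bases of the start. In TOP2A and SPC25 CCAAT boxes lie in the printed stretch and CHR matches farther out, 151 and 194 bases before the start in TOP2A and 247 bases before it in SPC25, which has another CHR across its start. NDC80 has a CHR across its start and NUF2 has one that begins 16 bases after it, so neither shows in the printed stretch. The CCNA2 window holds a CCAAT box and no TTTGAA on either strand. The CDC25C window holds neither set of letters. Each gene was searched at the annotated start shown only, so elements at another start of CDC25C or of any other gene would be missed. A CHR spelled other than TTTGAA would be missed too, in CCNA2 as in any other gene. A match is a string of letters and not a measured binding site.

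Summed FPKM ran from 612355 to 821188 per library, and 10495 to 11108 genes reached 1 FPKM. Read depth is unknown, so no counting interval is given. All 11 erythroid markers of the K562 list reached 1 FPKM, with summed levels of 5104 to 18002 FPKM. These marker genes moved with palmitate too, as given beside the results. Markers of B cells, monocytes and endothelium stayed under 1 FPKM in every library, and of the other lists CD3D, CD3G, EPCAM and COL1A2 passed it. AGPAT6 was at 8.77 FPKM in the palmitate-treated knockout and at 17.98 to 20.96 in the 3 wild-type libraries of that table. RNF213 was at 1.39 and 1.54 FPKM in the untreated and palmitate-treated knockdown, against 1.96 and 3.08 in wild type.

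In wild-type cells given palmitate, 0 of the 39 genes passed the test over the 3 experiments. The median of their mean log2 ratios lay below 0. The genes of chromosome compaction, mitotic entry kinases, spindle checkpoint and passenger complex had median log2 ratios below 0. Those of the kinetochore and spindle were close to 0 in the median, with members on both sides of it. At the extremes stood ESPL1, which encodes separase, at a 1.88-fold lower mean level and CDC25C, the phosphatase that activates CDK1, at a 1.49-fold higher one, both on the FPKM + 1 scale. The test was limma on log2(FPKM + 1) ratios within each experiment (2-sided, n = 3), with Benjamini-Hochberg adjustment over all 11075 genes and a threshold of 0.05. It called 6.79% of all genes higher and 4.22% lower. At an unadjusted p under 0.05, 5 of the 39 passed in limma (3 lower, 2 higher), against 32.4% of all genes. The median mean log2 ratio of the 39 was -0.29, and that of all genes -0.06. The erythroid markers were lower with palmitate as well, summing to 9970 FPKM untreated and 6190 with palmitate in experiment 1, 18002 and 5104 in experiment 2 and 10049 and 5209 in experiment 3. These sums are mostly globin RNA. Limma called 6 of the 11 lower and 0 higher, with a median log2 ratio of -1.25. The erythroid factor gene KLF1 fell by 2.83 ± 0.47 and GATA1 by 1.46 ± 0.24 (limma adjusted p = 0.0266 and 0.0259, n = 3). Here and below, the value after ± is limma's moderated standard error (SE), which borrows spread from all genes. TAL1 and TFRC moved little, with means of -0.21 and 0.09 (limma adjusted p = 0.495 and 0.817, n = 3). The part of the erythroid markers in the members' ratios was not tested. In a bulk RNA sample, fewer cells in mitosis and less of these RNAs per cell cannot be told apart.

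**Figure D1:**
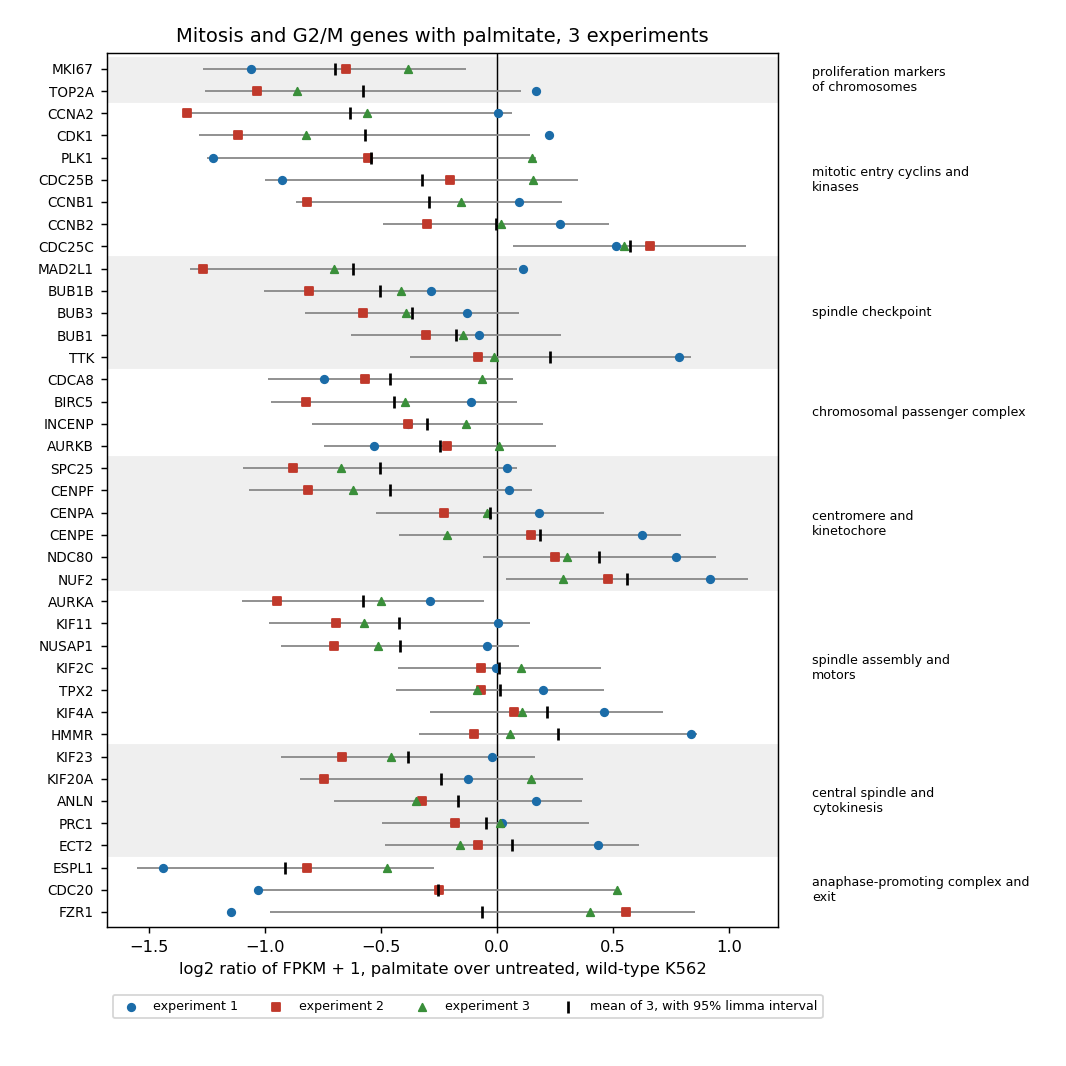
Log2 ratio of FPKM + 1, palmitate over untreated wild-type K562 cells (horizontal axis), for the 39 genes grouped by role (vertical axis); coloured points are the 3 experiments, the black tick their mean, and the grey line its 95% limma interval. ESPL1 and MKI67 lie below 0 and CDC25C and NUF2 above 0 in each experiment, while TOP2A, CDK1, CCNA2 and MAD2L1 lie near or above 0 in experiment 1 and below it in the others.

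The experiments did not move the set alike. The median log2 ratio was 0.01 in experiment 1, -0.38 in experiment 2 and -0.14 in experiment 3. In experiment 1, 18 of the 39 were lower with palmitate, against 50.6% of all genes. In experiment 2, 33 were lower, against 52.5%, and in experiment 3, 25 were lower, against 52.2%. More than 2-fold lower were ESPL1, PLK1, FZR1, MKI67 and CDC20 in experiment 1 (5 of 39, against 11.2% of all genes). In experiment 2 they were CCNA2, MAD2L1, CDK1 and TOP2A (4 of 39, against 11.6%), and in experiment 3 there were 0 (against 2.24%). The genes past 2-fold in experiment 1 and those in experiment 2 have no gene in common. The share of all genes past 2-fold in both was not counted, so this does not set the members apart. Lower in all 3 experiments were 11 members, namely MKI67, AURKA, BUB1, BUB1B, BUB3, KIF23, NUSAP1, BIRC5, INCENP, CDCA8 and ESPL1, against 29.6% of all genes. Higher in all 3 were CDC25C, KIF4A, NDC80 and NUF2 (4 of 39, against 25.9%). The share of members lower in all 3 was thus near that of all genes, and the share higher was below it.

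The 2 chromosome-based proliferation markers had a median log2 ratio of -0.64. MKI67, the source of the Ki-67 antigen that coats mitotic chromosomes, went from 26.5 FPKM untreated to 12.2 with palmitate in experiment 1, from 13.6 to 8.31 in experiment 2 and from 12.5 to 9.33 in experiment 3. The palmitate library was the lower of each pair, with a mean log2 ratio of -0.70 ± 0.23 (moderated SE, n = 3, limma adjusted p = 0.1003). TOP2A, the topoisomerase that untangles sister DNA, was at 120.8 and 136.0 FPKM in experiment 1, at 85.5 and 41.3 in experiment 2 and at 122.8 and 67.1 in experiment 3. Its palmitate library was thus the higher of the pair in experiment 1 and the lower one in the others, for a mean of -0.57 ± 0.28 (limma adjusted p = 0.210, n = 3).

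Among the 7 cyclins and kinases of mitotic entry, 6 had mean ratios below 0 and 1 above it, with a median of -0.32. CDK1, the kinase that drives entry, had the highest mean level of the 39 genes, 145.4 FPKM over the 11 libraries, whose 3 tables were scaled separately. It was at 134.4 FPKM untreated and 157.5 with palmitate in experiment 1, at 154.0 and 70.6 in experiment 2 and at 209.5 and 118.1 in experiment 3. Its partner cyclin gene CCNA2 was at 92.3 and 92.5 FPKM, at 113.1 and 44.3, and at 114.2 and 77.1 in the same order. Both were lower with palmitate in experiments 2 and 3 only, with means of -0.57 ± 0.29 and -0.63 ± 0.28 (limma adjusted p = 0.231 and 0.185, n = 3). CDC25C went the other way, from 8.43 to 12.4 FPKM in experiment 1, from 9.98 to 16.4 in experiment 2 and from 9.82 to 14.8 in experiment 3. The palmitate library was the higher of each pair, at a mean of 0.57 ± 0.21 (limma adjusted p = 0.117, n = 3). PLK1, a kinase of entry and of spindle formation, was at 82.0 and 34.6 FPKM in experiment 1, at 96.9 and 65.7 in experiment 2 and at 47.9 and 53.3 in experiment 3, so that its direction differed between experiments. CDC25B, CCNB1 and CCNB2, the phosphatase and B-type cyclins of mitotic entry, had means of -0.32, -0.29 and -0.00 (0.025 for CCNB2 with centred ratios). The mean of CDC25B was -0.023 without experiment 1 and that of CCNB1 -0.029 without experiment 2, so each rests largely on that experiment.

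The 5 spindle checkpoint genes had a median of -0.37. MAD2L1, which encodes the checkpoint inhibitor that sequesters CDC20, was the most abundant of them, at 126.5 and 136.7 FPKM in experiment 1, 124.8 and 51.4 in experiment 2 and 159.8 and 97.8 in experiment 3. Its mean was -0.62 ± 0.29 (limma adjusted p = 0.197, n = 3), with experiment 1 on the other side of 0. BUB1B, whose product BubR1 is part of the same inhibitory complex, was lower with palmitate in each experiment. It went from 53.3 to 43.6, from 39.7 to 22.2 and from 39.2 to 29.2 FPKM. Its mean was -0.50 ± 0.21 (limma adjusted p = 0.156, n = 3). TTK, the kinase that starts checkpoint signalling, had a mean of 0.23, with 0.78 in experiment 1 and -0.08 and -0.01 in the others. BUB3 and BUB1, which bring checkpoint proteins to the kinetochore, had means of -0.37 and -0.18. The 4 genes of the chromosomal passenger complex, which corrects faulty attachments, all had means below 0, from -0.46 for CDCA8 (borealin) and -0.44 for BIRC5 (survivin) over -0.30 for the scaffold gene INCENP to -0.24 for the kinase gene AURKB, and limma called 0 of them.

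At the kinetochore, the mean ratios of subunits of a single complex lay on both sides of 0. NDC80, NUF2, SPC25 and SPC24 encode the 4 subunits of the NDC80 complex, which binds microtubules. NUF2 went from 34.1 to 65.4 FPKM in experiment 1, from 28.8 to 40.6 in experiment 2 and from 41.0 to 50.1 in experiment 3. NDC80, its direct partner, went from 39.1 to 67.5, from 35.9 to 42.9 and from 46.9 to 58.1 FPKM. Both were higher with palmitate in each experiment, at means of 0.56 ± 0.21 and 0.44 ± 0.21 (limma adjusted p = 0.131 and 0.195, n = 3). SPC25, on the centromere side of the complex, was at 74.9 and 77.2 FPKM, at 49.1 and 26.2 and at 99.1 and 61.8, a mean of -0.50 ± 0.24 (limma adjusted p = 0.206, n = 3). SPC24, which is not a member and was added after its values were seen, was at 47.1 and 20.6, at 33.96 and 12.1 and at 23.4 and 16.1 FPKM, a mean of -1.03 ± 0.25 (limma adjusted p = 0.0510, n = 3). None of the 4 passed the test, SPC24 passed in the fit without small RNA genes and in that on GC-corrected ratios (limma adjusted p = 0.0126 and 0.0312, n = 3), and the difference between the subunits was not tested. The median of the 6 centromere and kinetochore members was 0.08, with CENPF at -0.46, CENPA (the centromeric histone) at -0.03 and CENPE (a kinetochore motor) at 0.19.

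**Figure D2:**
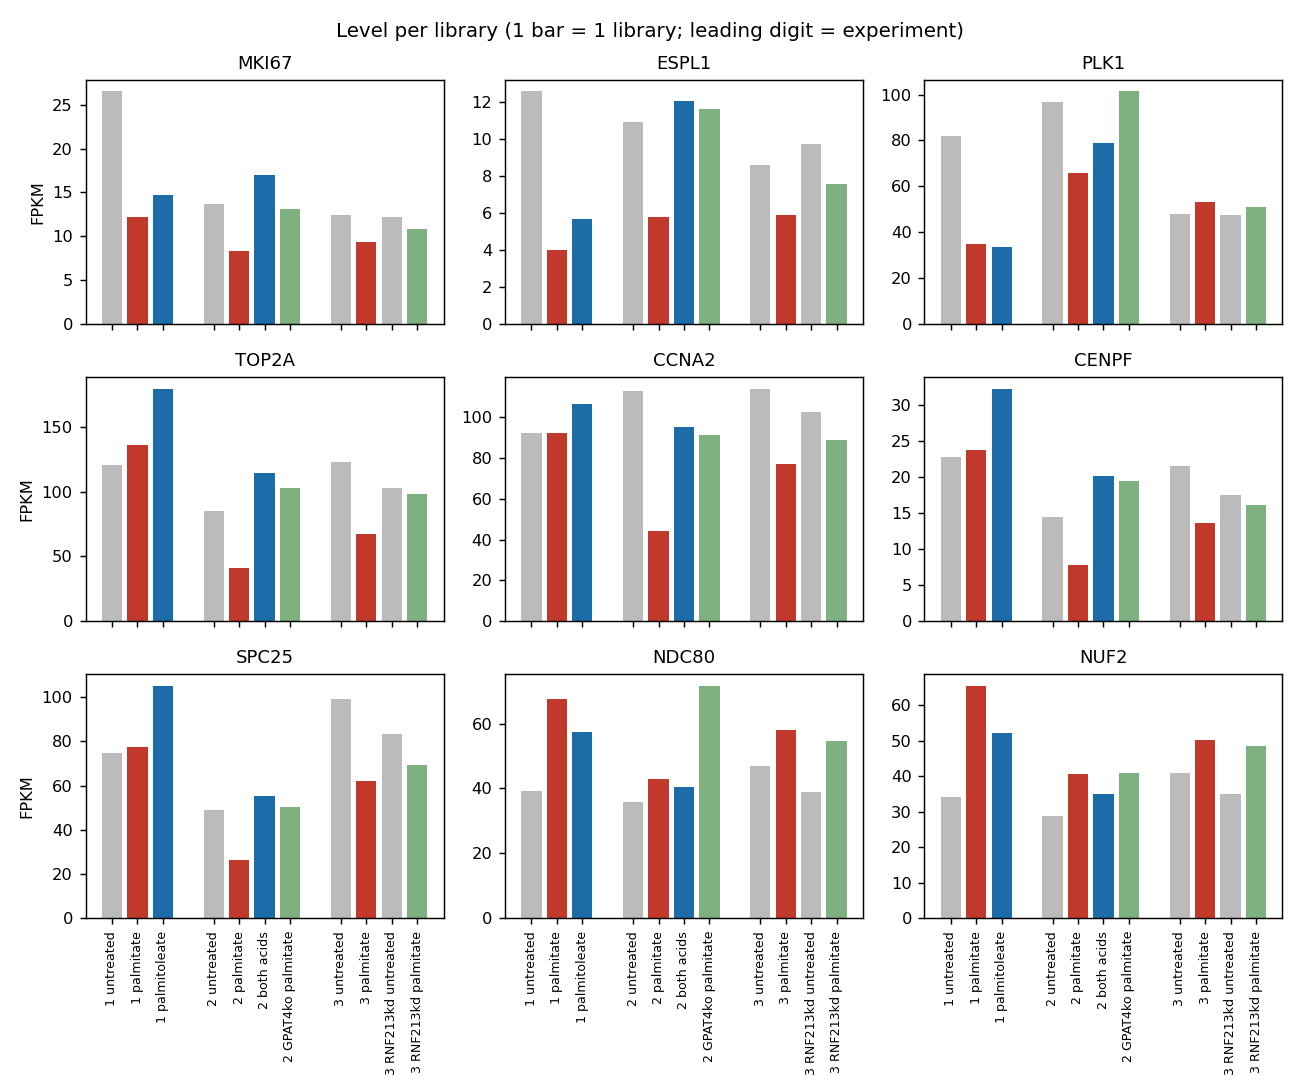
FPKM (vertical axis, from 0) of 9 genes in each of the 11 libraries (1 bar per library, grouped by experiment; grey, untreated; red, wild type with palmitate; blue, wild type with palmitoleate or both acids; green, knockout or knockdown with palmitate). In experiment 2 TOP2A, CCNA2, CENPF and SPC25 are lowest in the wild-type palmitate library, while NDC80 and NUF2 are lowest in the untreated one.

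The 7 spindle assembly and motor genes had a median of 0.01. AURKA, the kinase of centrosome maturation, was lower with palmitate in each experiment: 54.9 to 44.7, 61.4 to 31.4 and 55.9 to 39.3 FPKM, at a mean of -0.58 ± 0.21 (limma adjusted p = 0.125, n = 3). KIF11, the motor that pushes spindle poles apart, had ratios of 0.01, -0.69 and -0.57. TPX2, the activator of AURKA and the most abundant of these 7 genes at a mean of 86.6 FPKM, had ratios of 0.20, -0.07 and -0.09, a mean of 0.01. NUSAP1, which bundles spindle microtubules, had -0.42, the microtubule depolymerase gene KIF2C 0.01, the chromosome-bound motor gene KIF4A 0.21 and HMMR 0.26. The mean of the kinase thus lay below 0 and that of its activator at it, a difference that was not tested. The 5 genes of the central spindle and cytokinesis had a median of -0.17, with KIF23 at -0.38, KIF20A at -0.24, ANLN (anillin) at -0.17, PRC1 at -0.05 and ECT2 at 0.07, and limma called 0 of them.

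Among the genes of the anaphase-promoting complex and mitotic exit, ESPL1 had the lowest mean ratio of the 39 genes. It went from 12.6 to 4.00 FPKM in experiment 1, from 10.9 to 5.75 in experiment 2 and from 8.58 to 5.90 in experiment 3, so that the palmitate library was the lower of each pair. Its mean was -0.91 ± 0.26 (moderated SE, n = 3), with the smallest adjusted p of the set in limma, 0.0733. In a fit without small RNA and SNAR genes limma called it lower (adjusted p = 0.0238, n = 3), and it was then the only 1 of the 39 called, against 11.1% of all genes called lower. The activators of the complex differed by experiment. CDC20, its mitotic activator, was at 81.8 and 39.5 FPKM, at 132.3 and 111.0 and at 54.7 and 78.7. FZR1, which encodes the exit activator Cdh1, was at 8.66 and 3.37, at 12.5 and 18.8 and at 5.53 and 7.63 FPKM. FZR1 was thus lower with palmitate in experiment 1 and higher in experiments 2 and 3.

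In experiment 1 the members' ratios moved with transcript GC content. Across the 39 genes, the log2 ratio of palmitate to untreated and the GC content of the longest transcript had a Spearman correlation of -0.77 in experiment 1, 0.10 in experiment 2 and 0.41 in experiment 3. Across all tested genes with a GC value it was -0.63, -0.02 and 0.15. These are correlations over genes that share their libraries, given as a description. The median GC content was 44.3% for the 39 genes and 47.6% for all tested genes. Of the 5 genes more than 2-fold lower in experiment 1, FZR1, ESPL1, CDC20 and PLK1 are among the GC-richest of the set at 63.8, 57.0, 57.9 and 57.1%, and MKI67 is at 48.3%. With a smooth GC trend over all genes taken out of each ratio, 0 members remained past 2-fold lower in experiment 1 (2.59% of all genes) and 3 in experiment 2 (10.2%). In experiment 1 MKI67 went from -1.06 to -0.97, ESPL1 from -1.44 to -0.85 and PLK1 from -1.22 to -0.63. CDC20 went from -1.03 to -0.39 and FZR1 from -1.14 to -0.24. The part of GC content in the ratios was not tested beyond this.

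**Figure D3:**
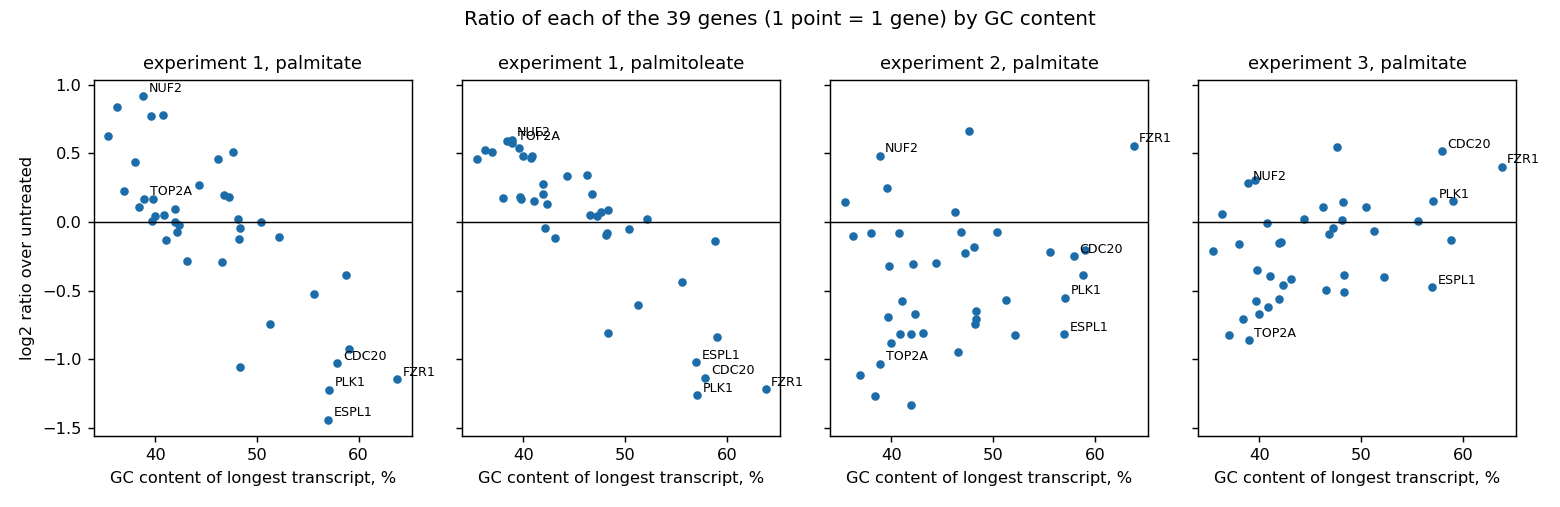
Log2 ratio over untreated (vertical axis) against GC content in percent of the longest transcript (horizontal axis) for the 39 genes, 1 point per gene, in 4 comparisons of 2 wild-type libraries. In both comparisons of experiment 1 the GC-rich genes FZR1, PLK1, ESPL1 and CDC20 are among the lowest and NUF2 among the highest, a slope that experiments 2 and 3 do not share.

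Taking out the GC trend changed which members had the same sign in the 3 experiments. Lower in all 3 were then 18 of the 39, against 33.3% of all genes, TOP2A, CDK1, CCNA2, MAD2L1, SPC25 and CENPF among them. NUSAP1, BIRC5 and INCENP left that group, with ratios in experiment 1 of 0.04, 0.19 and 0.30 after the trend was removed. Higher in all 3 were 4, against 34.6%, again CDC25C, KIF4A, NDC80 and NUF2. In that fit limma called MKI67, BUB1B, KIF11, SPC25 and ESPL1 lower (5 of 39, against 12.2% of all genes) and CDC25C and NUF2 higher (2 of 39, against 15.2%). ESPL1 fell by 0.72 ± 0.13 on the log2 scale (limma adjusted p = 0.0244, n = 3), and SPC25 fell by 0.56 ± 0.15 (adjusted p = 0.0493). NUF2 rose by 0.49 ± 0.12 (limma adjusted p = 0.0418, n = 3), and CDC25C rose by 0.62 ± 0.12 (adjusted p = 0.0265). The share of members called lower was near that of all genes, and the share called higher was below it.

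Palmitoleate alone was compared with untreated and palmitate-treated cells of experiment 1, with 1 library each and so no test. Over untreated, the median log2 ratio was 0.14. PLK1 (82.0 FPKM untreated, 33.6 with palmitoleate), FZR1 (8.66 and 3.15), CDC20 (81.8 and 36.7) and ESPL1 (12.6 and 5.68) were more than 2-fold lower, 4 of 39 against 6.60% of all genes. The Spearman correlation with GC content was -0.88 over the 39 genes and -0.76 over all genes, and with the GC trend removed 0 members were past 2-fold (0.685% of all genes). PLK1 had a log2 ratio of -1.26 (95% interval -2.49 to -0.03), and -0.73 with the GC trend removed. It was the only 1 of the 39 whose interval left out 0, and the share over all genes was not counted. The highest ratios were those of NUF2 (0.60), MAD2L1 (0.59) and TOP2A (0.57). Over palmitate the median was 0.09, from -0.44 for CDC25C to 0.48 for MAD2L1, and 0 members were past 2-fold either way (1.25% of all genes higher, 4.66% lower). SPC25 stood at 105.2 FPKM with palmitoleate and 77.2 with palmitate, a ratio of 0.44, and CENPF at 32.3 and 23.7, a ratio of 0.43. NUF2 and TTK were the lowest after CDC25C, both at -0.32. Intervals for these comparisons borrow the spread of the wild-type palmitate ratios between experiments, and of those to palmitate all 39 include 0.

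Adding palmitoleate to palmitate came with levels near those of untreated cells in experiment 2. TOP2A was at 85.5 FPKM untreated, 41.3 with palmitate and 114.4 with both acids. CENPF was at 14.5, 7.81 and 20.1, and MAD2L1 at 124.8, 51.4 and 119.9. In each case the palmitate library was the lowest and the mixture lay close to or above the untreated level. These genes were named for the highest ratios of both acids to palmitate, so their low palmitate level follows in part from that choice. With both acids, 34 of the 39 genes were higher than with palmitate, against 52.5% of all genes, and the median log2 ratio was 0.43 (0.04 for all genes). The erythroid marker sum was 13672 FPKM with both acids, against 5104 with palmitate. More than 2-fold higher were TOP2A (1.45, 95% interval 0.27 to 2.63), CENPF (1.26, 0.20 to 2.31), MAD2L1 (1.21, -0.01 to 2.43), CCNA2 (1.09, -0.11 to 2.29), SPC25 (1.04, 0.02 to 2.06) and CDK1 (1.02, -0.22 to 2.25), 6 of 39 against 9.22% of all genes. With the GC trend removed there were 4 (8.28% of all genes). Those lower with both acids than with palmitate included FZR1 (-0.63), CDC25C (-0.37) and NUF2 (-0.21), whose palmitate level had been above untreated. Over untreated cells the mixture had a median ratio of 0.08, from -0.29 for PLK1 to 0.51 for CENPE, with 0 members past 2-fold (1.12% of all genes higher, 0.578% lower).

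GPAT4ko cells given palmitate also had higher levels of most of these genes than wild-type cells given palmitate. TOP2A was at 103.0 FPKM in the knockout and 41.3 in wild type, a log2 ratio of 1.30 (95% interval 0.12 to 2.48). CENPF was at 19.4 and 7.81, a ratio of 1.21 (0.16 to 2.27), and KIF20A, a motor of cytokinesis, at 22.8 and 10.1, a ratio of 1.10 (0.05 to 2.16). CCNA2 (1.03, -0.17 to 2.23) and MAD2L1 (1.01, -0.21 to 2.23) were also more than 2-fold higher, which makes 5 of 39 against 7% of all genes, and 3 with the GC trend removed (6.09%). In all, 36 of the 39 were higher, against 52.9% of all genes, with a median of 0.50 (0.04 for all genes). The 3 that were lower were FZR1 (-0.54), KIF4A (-0.23) and CDC25C (-0.04). The erythroid marker sum was 7340 FPKM in the knockout, against 5104 in wild type with palmitate. Of those markers, HBE1 was lower in the knockout, at 912 FPKM against 2944. The others were higher, HBG2 for example at 3376 against 1234. The palmitate response of experiment 2 and the comparisons of the mixture and of the knockout with palmitate all share the same wild-type palmitate library. Their counts are therefore not independent.

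Over untreated wild-type cells, the palmitate-treated knockout had a median ratio of 0.06, with 0 members past 2-fold (3.64% of all genes higher, 1.34% lower). NDC80 was the highest, at 71.7 FPKM against 35.9 (0.98, 95% interval 0.11 to 1.85), followed by CDC25C (0.62) and CENPE (0.56). NUF2 was at 40.8 FPKM against 28.8 (0.49, -0.41 to 1.39). In palmitate-treated wild type NUF2 was at 40.6 FPKM and NDC80 at 42.9. CDK1 was the lowest at 97.7 FPKM against 154.0 (-0.65, -1.88 to 0.58), followed by BUB3 (-0.36) and NUSAP1 (-0.32). The untreated GPAT4ko library was not analysed here, so the response to palmitate within the knockout is not given, and a difference of the line cannot be told apart from its response. Among the 4 libraries of experiment 2, the wild-type palmitate library was the lowest for 32 of the 39 genes (42.6% of all genes) and the highest for 2, CDC25C and FZR1 (36.7% of all genes). This restates the comparisons above, which share that library.

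**Figure D4:**
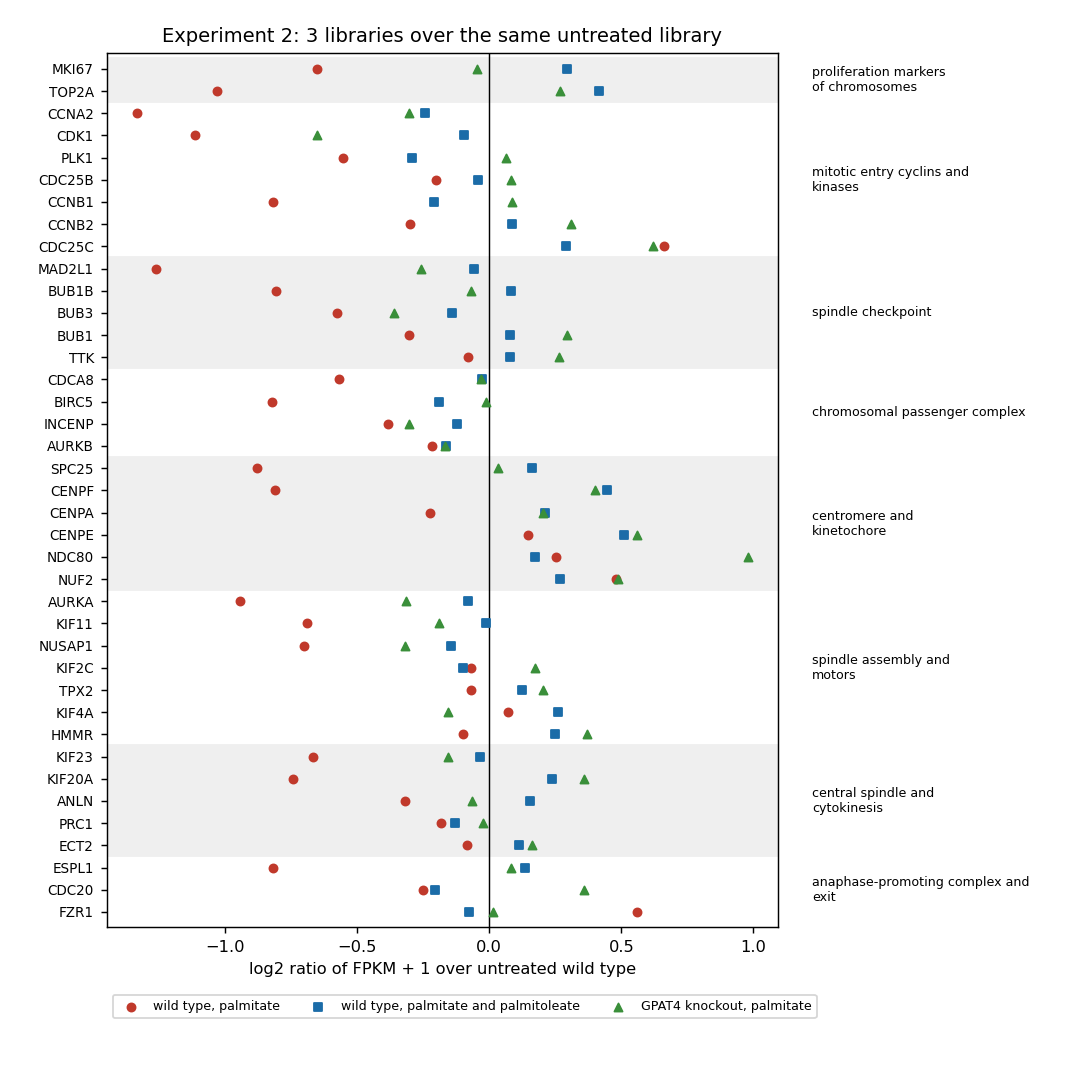
Log2 ratio of FPKM + 1 over untreated wild-type cells (horizontal axis) in the other 3 libraries of experiment 2 for the 39 genes grouped by role (vertical axis), 1 point per library. The wild-type palmitate points reach -1.33 (CCNA2), whereas those of both acids lie between -0.29 and 0.51 and those of the knockout between -0.65 and 0.98.

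In experiment 3, untreated RNF213kd cells were close to untreated wild type in the median, with 1 library each. The median log2 ratio over untreated wild type was -0.13, 30 of the 39 were lower (44.4% of all genes), and 0 were past 2-fold (0.460% of all genes higher, 0.379% lower). The lowest were HMMR (-0.44), a spindle microtubule protein, CENPE (-0.40) and KIF11 (-0.38), and the highest CDC25B (0.35), AURKB (0.34) and FZR1 (0.32). These ratios had a Spearman correlation of 0.84 with GC content over the 39 genes and 0.63 over all genes.

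Palmitate in RNF213kd cells gave a median ratio of -0.00 over untreated knockdown cells, with 0 members past 2-fold (2.74% of all genes higher, 0.704% lower). TOP2A was at 103.2 FPKM untreated and 98.7 with palmitate in the knockdown, beside 122.8 and 67.1 in wild type. CDK1 was at 172.9 and 148.7 in the knockdown, beside 209.5 and 118.1. ESPL1 was at 9.72 and 7.55, beside 8.58 and 5.90. For TOP2A and CDK1 the 2 untreated libraries differed too, with the knockdown the lower one. HMMR (0.51), NDC80 (0.48) and NUF2 (0.46) had the highest ratios in the knockdown, and ESPL1 (-0.33), SPC25 (-0.26) and CDK1 (-0.22) the lowest. With 1 pair of libraries in each line, the difference between the lines in their response was not tested.

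Under palmitate, the knockdown had a median ratio of 0.13 over wild type, and 30 of the 39 were higher (55.4% of all genes). TOP2A was the highest (0.55, 95% interval -0.63 to 1.73), then CDK1 (0.33) and ESPL1 (0.31), and CDC20 the lowest (-0.18). Past 2-fold were 0 of the 39 (0.551% of all genes higher, 0.804% lower). The wild-type palmitate library was the lowest of the 4 in experiment 3 for 19 members (40.2% of all genes) and the highest for 7 (30.7%), namely CDC20, CDC25C, PLK1, KIF4A, NDC80, NUF2 and FZR1.

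**Figure D5:**
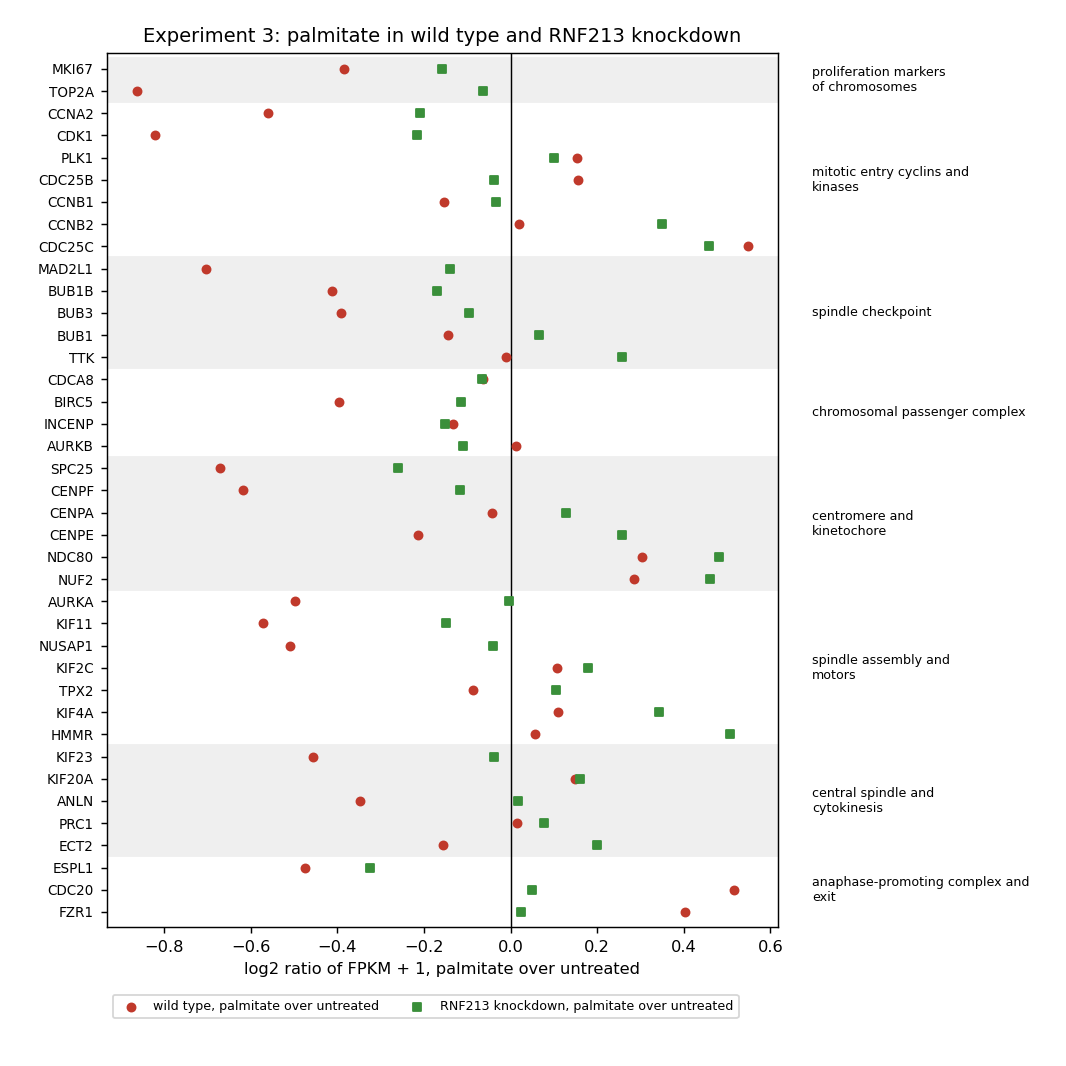
Log2 ratio of FPKM + 1, palmitate over untreated (horizontal axis), in wild-type and RNF213kd cells of experiment 3 for the 39 genes grouped by role (vertical axis), 1 point per pair of libraries. The wild-type points reach -0.86 (TOP2A), the knockdown points lie between -0.33 and 0.51, and NDC80, NUF2 and CDC25C lie to the right of 0 in both.

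Other genes of the pathway, 130 tested in 6 lists, gave 4 called higher and 3 lower by limma with palmitate in wild-type cells (6.79% and 4.22% of all genes), with a median of -0.13. With the GC trend removed the counts were 6 higher and 20 lower (15.2% and 12.2% of all genes). CDKN1A, which encodes p21, was at 2.02 FPKM untreated and 15.7 with palmitate in experiment 1, at 1.99 and 146.0 in experiment 2 and at 1.38 and 28.5 in experiment 3. It rose by 3.91 ± 0.57 on the log2 scale (limma adjusted p = 0.0204, n = 3). It was at 0.993 FPKM with palmitoleate, 4.26 with both acids and 13.1 in the palmitate-treated knockout, and went from 1.13 to 13.5 with palmitate in the knockdown. The log2 ratios of CDKN1A were 2.47, 5.62 and 3.63 in experiments 1 to 3, beside member medians of 0.01, -0.38 and -0.14, a relation that 3 experiments cannot test. GADD45A, a stress-induced gene of the G2 checkpoint, rose by 1.56 ± 0.23 (limma adjusted p = 0.0201, n = 3), LIN37, a subunit of the DREAM core, by 1.40 ± 0.26 (adjusted p = 0.0326), and CKAP2L, a spindle protein, by 0.86 ± 0.20 (adjusted p = 0.0498).

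E2F2 and TFDP1, both parts of E2F transcription factors, fell by 1.38 ± 0.31 and 1.37 ± 0.28 (limma adjusted p = 0.0462 and 0.0376, n = 3), and E2F2 lost its call with the GC trend removed (limma adjusted p = 0.0520). ZWINT, a kinetochore protein, fell by 1.23 ± 0.27 (limma adjusted p = 0.0416, n = 3). Of the regulators that act on the members, MYBL2 had a mean of -1.14 ± 0.29 (limma adjusted p = 0.0592, n = 3), E2F4 of -0.82 ± 0.23 (0.0733) and FOXM1 of -0.55 ± 0.27 (0.214). MYBL2 and E2F4 passed in the fit without small RNA and SNAR genes (limma adjusted p = 0.0115 and 0.0322, n = 3) and in that with the GC trend removed (0.0219 and 0.0332). LIN54, the subunit that binds the CHR, was at 0.41, the CDK1-inhibiting kinase gene WEE1 at 0.45 and PTTG1, the securin that restrains separase, at -0.23, and none of these passed. FBXO5, an inhibitor of the anaphase-promoting complex, had -0.88 (0.0762) and ANAPC2, a subunit of it, -0.72 (0.148). The condensin genes NCAPD3 and NCAPH had -0.93 (0.0503) and -0.67 (0.0789), CENPM of the inner kinetochore -1.20 (0.0570) and the lamin gene LMNB1 -0.93 (0.112). FBXO5 and NCAPD3 passed in both of those fits, NCAPH with the GC trend removed only, CENPM and LMNB1 without small RNA and SNAR genes only, and ANAPC2 in neither.

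Genes of DNA replication, the S-phase step before mitosis, had a median of -0.79 with palmitate, and limma called 7 of 36 lower and 0 higher (4.22% and 6.79% of all genes), beside a median of -0.29 and 0 of 39 for the mitosis genes. With the GC trend removed it called 24 of 36 lower, beside 5 of 39 (12.2% of all genes). In experiment 2 the replication genes had medians of -1.06 for palmitate over untreated and 0.98 for both acids over palmitate, beside -0.38 and 0.43 for the mitosis genes. Both comparisons use the same wild-type palmitate library. The difference between the sets was not tested.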

How the data were processed

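Poly(A) RNA of K562 cells was sequenced in 12 labelled libraries, of which 11 had values under their names; 2 more in the tables, under names outside the labels, were not used. Per the labels, the authors pooled biological triplicates, prepared stranded libraries, mapped reads to hg19 with TopHat2 and quantified them with Cuffdiff (versions are not given in the sources used here). Deposited values are FPKM, which the authors scaled within 1 table per experiment, so ratios were formed only inside a table.

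Of 23153 shared genes, 11075 had a mean FPKM of at least 1 and were tested on log2(FPKM + 1), which understates changes of low genes. The wild-type palmitate response used limma 3.58.1 in R 4.3.3 (experiment as block, intensity trend, Benjamini-Hochberg over all genes; 2 residual and 4.02 prior degrees of freedom), tested on simulated data. Untreated and palmitate deviations correlated at 0.458 to 0.696 within an experiment and at -0.526 to 0.011 between experiments. Deviations were taken from each group's mean over the experiments, so positive values within an experiment push those between experiments below 0. Single-library comparisons have no test, and their 95% intervals assume the spread of the wild-type ratios. GC trends (lowess, window 0.3) used the longest GRCh37 transcript, known for 87.02% of tested genes and all 39 members. Spread between pooled libraries may be partly technical.

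Named are, per role, the 2 members with the largest absolute ratios and the most abundant, per single-library comparison the 3 highest and 3 lowest, per other list the 2 largest, and 7 regulators; further genes were named after their values were seen. Members and lists were chosen with earlier results of these data known. Alternatives varied pseudocount, filter, centring, block, trend, small RNA genes, GC content and experiments.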

Additional observations from a re-analysis of the deposited data

Results flagged for a closer look

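BUB1, the checkpoint kinase gene, had a palmitate log2 ratio of 0.065 in RNF213kd cells, opposite in sign to the ratios of -0.08, -0.31 and -0.14 in the 3 wild-type experiments. With 1 pair of knockdown libraries the difference was not tested.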

How the results depend on the processing

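The results of the wild-type palmitate response were recomputed under 8 other settings and without each experiment, and those of the single-library comparisons with another pseudocount, centred ratios and the GC trend removed. Members called lower by limma were 0 as reported, 1 without small RNA and SNAR genes and 5 after the GC trend was taken out; members called higher were 0, 0 and 2. Over all genes, limma called 467 lower as reported, 0 with no filter on low values, 52 with no replicate block, 1207 without small RNA and SNAR genes, 1172 after removal of the GC trend, and 0 to 304 with an experiment left out. It called 752 higher as reported, and 0, 262, 1234 and 1465 in the same settings, and 0 to 593 with an experiment left out. Without experiment 1 limma called 0 genes either way, with 40.3% of all genes and 16 of the 39 members at an unadjusted p under 0.05. With no filter it called 0 of 23153 genes, with 16.8% at an unadjusted p under 0.05. The fit without the block changed no call among the members. The block follows the tables, which were scaled separately.

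Some member and regulator ratios turned sign. CCNB2 went to 0.025 with centred ratios, and CENPA to 0.016, PRC1 to 0.0036, ECT2 to -0.014 and FZR1 to 0.28 with the GC trend removed. With an experiment left out the ranges that include both signs were -0.14 to 0.15 for CCNB2, -0.64 to 0.13 for CDC20, -0.045 to 0.39 for TTK, -0.13 to 0.070 for CENPA, -0.034 to 0.39 for CENPE, -0.43 to 0.013 for KIF20A, -0.036 to 0.052 for KIF2C, -0.078 to 0.064 for TPX2, -0.084 to 0.018 for PRC1, -0.12 to 0.18 for ECT2, -0.37 to 0.48 for FZR1, -0.021 to 0.45 for HMMR and -0.49 to 0.016 for PTTG1. Apart from the composition of each setting, the cause was not tested. With 1 pooled library per condition and unknown read depth, small differences between libraries are not resolved.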
